A study of Mus musculus with 11 samples.

Results

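The constant region genes of the mouse immunoglobulins set the class of an antibody, and 10 of them were listed by name for this account: the heavy chain genes *Ighm*, *Ighd*, *Ighg3*, *Ighg1*, *Ighg2b*, *Ighg2c* and *Igha*, and the light chain genes *Igkc*, *Iglc1* and *Iglc2*. Of the 10, 8 were found among the 19058 genes of the expression table, and *Ighd* and *Iglc1* were not analysed here. RNA had been sequenced from whole lacrimal gland, the gland that makes the watery part of tears, of male NOD mice, which spontaneously develop lymphocytic inflammation of this gland. There was 1 library for each of 11 mice: 3 wild-type (WT) mice, 5 *Tlr7* knockout (KO) mice and 3 *Ifnar1* KO mice, all on the NOD strain. *Tlr7* encodes an endosomal sensor of single-stranded RNA, and *Ifnar1* encodes a chain of the type I interferon receptor.

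The *Tlr7* KO line carries a 2 base-pair deletion made by CRISPR/Cas9 editing of NOD embryos and goes back to 1 mouse that was crossed to NOD for 1 generation before the mutation was made homozygous. The *Ifnar1* KO line carries the em16 allele. WT and *Tlr7* KO mice were between 20 and 22 weeks old, and the age of the *Ifnar1* KO mice is not given in the sources used here. Only 1 gland of each WT and *Tlr7* KO mouse went to RNA, as the other was used for histology. By the methods of the study, 1 further *Ifnar1* KO library was dropped because it clustered with WT and came from an inflamed gland, so that the 3 *Ifnar1* KO mice are a group from which a mouse was removed by its outcome. The WT mice are shared by both comparisons with a knockout.

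An antibody is built of paired heavy and light chains, and the heavy chain constant gene that a B cell uses decides its class. A B cell starts with IgM (*Ighm*) and may switch, by deleting the DNA in between, to one of the genes that lie downstream of it: the IgG subclasses or IgA (*Igha*). In the lacrimal gland, plasma cells secrete mainly IgA, which is joined into polymers by the J chain (*Jchain*) and carried through the epithelium into tears by the polymeric immunoglobulin receptor (*Pigr*).

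The 6 heavy chain genes measured lie on the minus strand of chromosome 12 of the mouse genome (GRCm38, the assembly also called mm10, with GENCODE M21 gene models), in the order in which a B cell can switch to them. *Ighm* (ENSMUSG00000076617) occupies chr12:113418558-113422730. *Ighg3* (ENSMUSG00000076615) starts 61.5 kb downstream of the *Ighm* start and *Ighg1* (ENSMUSG00000076614) 92.2 kb downstream of it. *Ighg2b* (ENSMUSG00000076613) follows at 114.8 kb, *Ighg2c* (ENSMUSG00000076612) at 133.8 kb and *Igha* (ENSMUSG00000095079) at 162.5 kb. The kappa light chain gene *Igkc* (ENSMUSG00000076609) lies at chr6:70726435-70726966 on the plus strand, and the lambda gene *Iglc2* (ENSMUSG00000076937) at chr16:19198396-19200351 on the minus strand.

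The IgG subclasses are told apart best by their hinges, the flexible stretch that links the antigen-binding arms to the stem and holds the disulfide bonds between the heavy chains. The hinge exon, exon 2 of 4 in each secreted transcript, is shown for all 4 subclass genes because the results turn on which subclass was lost. The sequences were read from GRCm38 on the minus strand and are printed 5′ to 3′, with the in-frame cysteine codons (TGT or TGC) in capitals.
Ighg3, chr12:113360529-113360576: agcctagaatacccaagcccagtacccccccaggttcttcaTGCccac
Ighg1, chr12:113329844-113329882: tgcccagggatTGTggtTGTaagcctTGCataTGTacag
Ighg2b, chr12:113307261-113307326: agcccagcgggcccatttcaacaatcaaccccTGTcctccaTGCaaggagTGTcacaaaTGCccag
Ighg2c, chr12:113288263-113288325: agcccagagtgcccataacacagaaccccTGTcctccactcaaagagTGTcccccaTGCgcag
The *Ighg1* exon, of 39 bases, is the shortest and holds 4 such codons. The *Ighg2b* exon has 66 bases and 4 codons, the *Ighg2c* exon 63 bases and 3 codons, and the *Ighg3* exon 48 bases and 1 codon.

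IgM and IgA differ from IgG at the other end of the chain, where the secreted form carries a tailpiece whose penultimate residue is the cysteine used for binding to the J chain. The last 60 coding bases of the secreted form are shown for *Ighm*, *Igha* and, as the contrast, *Ighg2c*, from GRCm38 on the minus strand, with in-frame cysteine codons in capitals.
Ighm, chr12:113420870-113420929: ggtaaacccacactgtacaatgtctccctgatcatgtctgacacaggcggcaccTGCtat
Igha, chr12:113258771-113258830: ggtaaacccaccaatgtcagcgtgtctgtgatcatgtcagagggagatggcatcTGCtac
Ighg2c, chr12:113287392-113287451: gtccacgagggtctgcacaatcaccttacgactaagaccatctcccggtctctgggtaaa
*Ighm* and *Igha* each have 1 cysteine codon in this stretch, directly before the last codon, and *Ighg2c* has 0.

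The resemblance among the IgG genes bears on how well reads could be assigned to them. Of all 31-base words in the exons of *Ighg2c*, 14.4% also occurred in *Ighg2b*, and 7.03% of those of *Ighg2b* occurred in *Ighg2c*. The words of *Ighg1* were shared with any other listed gene in 1.72% of cases and those of *Ighg3* in 3.63%. *Ighm*, *Igha* and *Igkc* shared none with the listed genes, whereas *Iglc2* shared 18.2% of its words with *Iglc3*, which was not analysed here. The values of *Ighg2b*, *Ighg2c* and *Iglc2* may therefore contain reads of their close relatives.

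Between 20512315 and 28814250 counts per mouse were assigned to genes. Levels are given as counts per 1000000 (CPM) after scaling with the trimmed mean of M-values (TMM), which corrects for the few very abundant secretory genes that take between 53.95% and 65.92% of the counts of a library. Values at or under 3 counts, which is 0.082 to 0.158 CPM by library, were treated as a floor. Of the targeted genes, *Tlr7* stood at 1.52 to 2.94 CPM in the WT mice, at 0.494 to 0.950 CPM in *Tlr7* KO and at 0.251 to 0.822 CPM in *Ifnar1* KO, and *Ifnar1* at 10.5 to 15.1, 8.35 to 11.2 and 8.34 to 9.63 CPM in the same order. A deletion of 2 bases leaves the *Tlr7* transcript countable, and the nature of the em16 allele is not given in the sources used here, so these levels do not test the labels. The tissue label was met by the 7 lacrimal acinar markers, whose summed level was between 49200 and 98100 CPM in every mouse.

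Several libraries stood apart in markers of other tissues. The 4 salivary gland markers measured summed to 2430 CPM in WT mouse 3, 2090 CPM in *Ifnar1* KO mouse 2 and 178 CPM in *Ifnar1* KO mouse 1, against at most 3.01 CPM in the other 8 mice. The 3 skeletal muscle markers summed to 270 CPM in WT mouse 1, 193 CPM in WT mouse 2 and 192 CPM in *Tlr7* KO mouse 4, against at most 7.47 CPM elsewhere. The 6 B cell markers were lowest in *Ifnar1* KO mouse 3, at 2.30 CPM in sum. *Tlr7* KO mouse 5 had the lowest scaling factor, 0.6875. Values without single mice, and without WT mouse 3 and *Ifnar1* KO mouse 2 together, are given where they bear on a result. The part of the muscle markers was not tested.

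**Figure D1:**
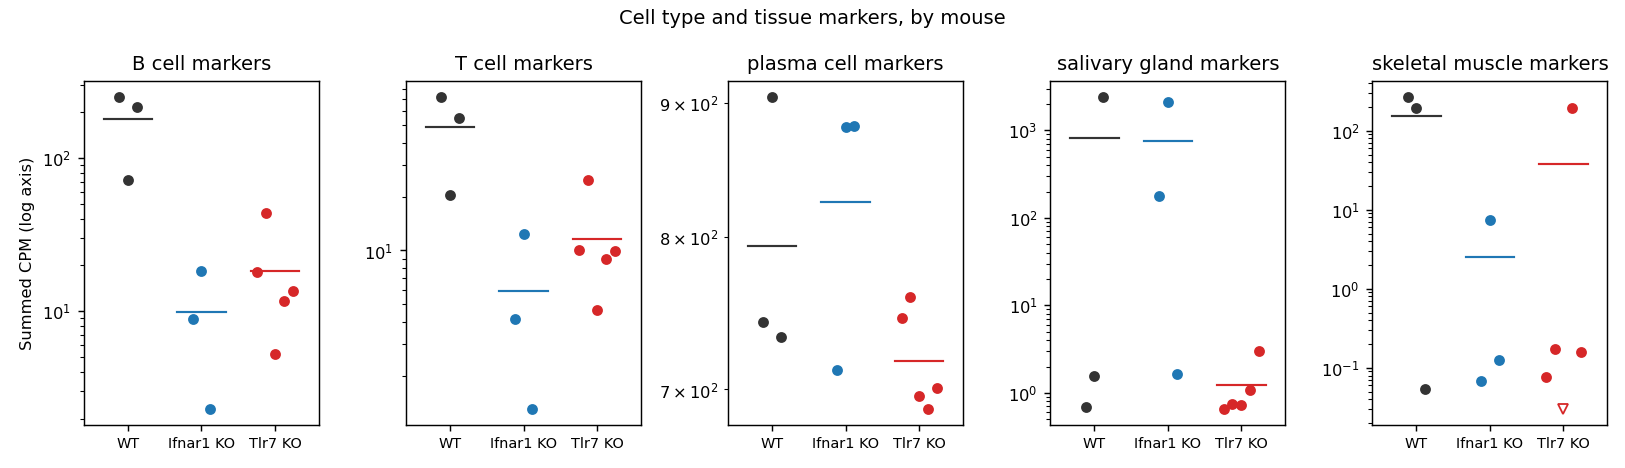
Summed CPM (log axis) of markers of B cells, T cells, plasma cells, salivary gland and skeletal muscle in each of 11 mice, with the group mean as a line and an open triangle for a sum of 0. The B cell sums were 71.3 to 250 CPM in WT and at most 43.4 CPM in every knockout mouse, whereas salivary gland and muscle markers were high in single mice.

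The first question was how the immunoglobulin classes are composed in the inflamed WT gland. Expressed per kilobase of exon, the kappa gene *Igkc* was the highest member in WT, at 2213 ± 224 CPM per kb (SD, n = 3), followed by *Igha* at 428 ± 55.4 and *Ighm* at 151 ± 31.2 CPM per kb. The lambda gene *Iglc2* stood at 58.5 ± 15.0 CPM per kb. Below it, *Ighg2c* at 30.2 ± 8.12 and *Ighg2b* at 27.2 ± 9.80 CPM per kb overlapped in their ranges, and their order turns with the length chosen, as given below. *Ighg1* at 4.86 ± 1.24 and *Ighg3* at 0.257 ± 0.112 CPM per kb were the least abundant, and neither overlapped the gene above it in the order.

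IgA thus made up most of the heavy chain RNA. When each count was divided by the exon length of its gene, *Igha* held 66.9% ± 2.47 of the heavy chain level in WT (SD, n = 3), *Ighm* 23.4% ± 1.21 and the 4 IgG genes together 9.63% ± 1.42. In *Tlr7* KO glands *Igha* held 89.6% ± 2.32 (n = 5), *Ighm* 8.82% ± 2.23 and IgG 1.60% ± 0.441. In *Ifnar1* KO glands *Igha* held 91.8% ± 5.10 (n = 3), *Ighm* 3.83% ± 3.23 and IgG 4.34% ± 1.88. In every knockout mouse the *Igha* share was above that of every WT mouse, with 86.75% in the lowest knockout mouse and 69.75% in the highest WT mouse.

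These shares depend on the length chosen, since the gene models of most classes include long exons of the membrane-bound form. With the length of the secreted transcript, an alternative chosen after the gene models had been seen, *Igha* held 77.5% in WT, 93.6% in *Tlr7* KO and 94.4% in *Ifnar1* KO, and *Ighm* held 14.1%, 4.81% and 2.07%. The order of the classes within each group's means did not change, except that in neither calculation could *Ighm* and IgG be ordered in *Ifnar1* KO, where *Ighm* ranged from 0.371% to 6.77% and IgG from 2.43% to 6.18%.

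The makeup of the IgG fraction differed most between *Tlr7* KO and the other mice. In WT, *Ighg2c* and *Ighg2b* held 48.7% ± 5.93 and 43.1% ± 6.86 of the IgG level per length and *Ighg1* only 7.85% ± 0.902. In *Tlr7* KO mice 1 to 5, *Ighg1* held 84.5%, 83.6%, 81.4%, 72.3% and 41.9%, and *Ighg2c* held 1.16%, 0.568%, 0.669%, 4.20% and 16.1%. In *Ifnar1* KO mice 1 to 3, *Ighg1* held 20.8%, 18.1% and 6.26%, and *Ighg2c* 39.6%, 44.7% and 38.7%. The *Ighg1* share was higher in each *Tlr7* KO mouse than in any other mouse, although *Tlr7* KO mouse 5 lay well apart from the other 4. With the secreted length the order of *Ighg2b* and *Ighg2c* turned: *Ighg2b* held 56.9% ± 6.73 and *Ighg2c* 32.2% ± 5.09 of IgG in WT, without overlap, and 55.1% ± 11.5 and 25.7% ± 2.57 in *Ifnar1* KO. *Ighg1* was at 45.7% to 85.1% in *Tlr7* KO by that length and at most 26.0% in the other mice.

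**Figure D2:**
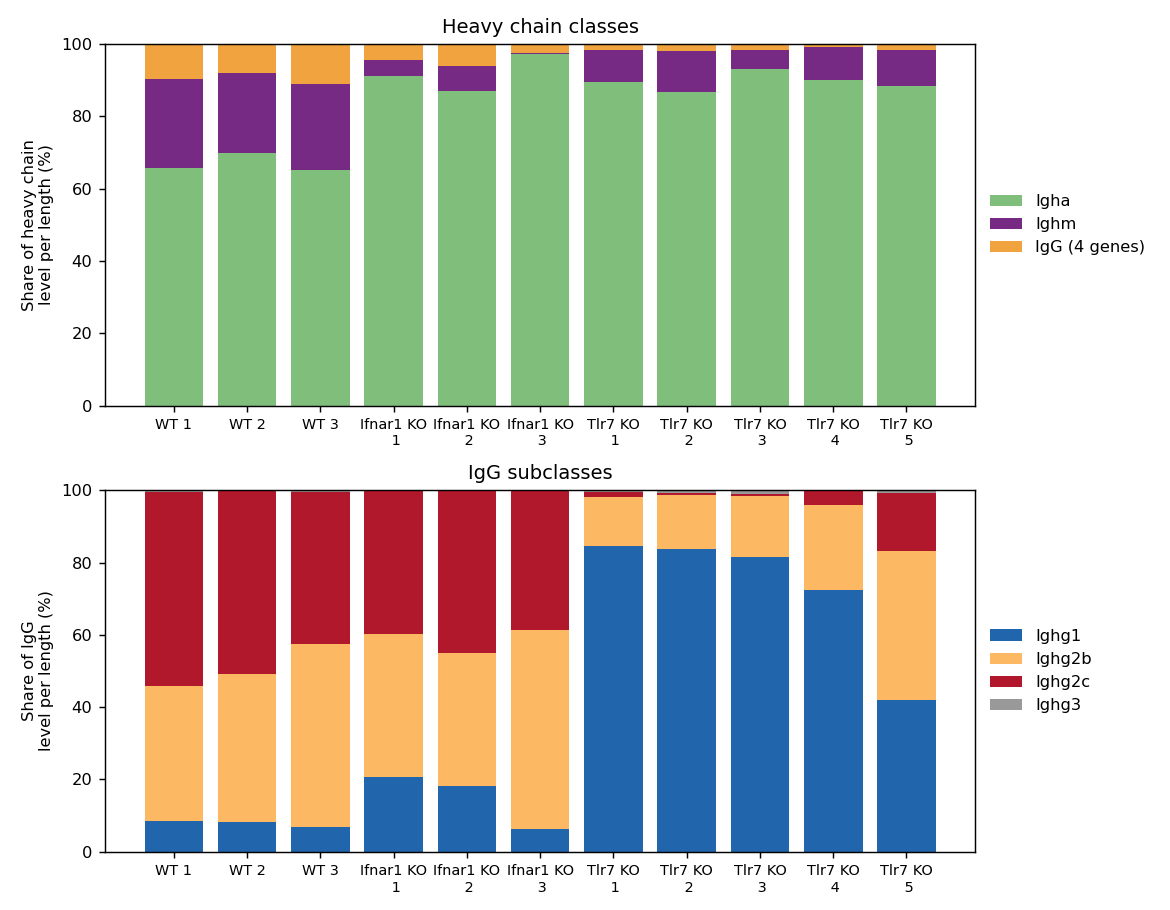
Share (%) of each heavy chain class in the heavy chain level per exon length (top) and of each IgG subclass in the IgG level (bottom), 1 bar per mouse. IgA takes 65.2% to 69.75% in WT and at least 86.75% in every knockout mouse, and *Ighg1* takes 41.9% to 84.5% of IgG in *Tlr7* KO against at most 20.8% elsewhere.

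The comparison of WT with *Tlr7* KO glands asked which classes depend on TLR7. All 8 members passed the filter of at least 30 counts summed over the WT mice, and 7 of them were lower in *Tlr7* KO with an adjusted p under 0.05 (quasi-likelihood test of edgeR, Benjamini-Hochberg adjusted over 13937 genes), where 17.4% of all genes tested were called lower, 15.3% higher and 32.8% in either direction. The remaining member, *Ighg1*, was not called, and its unadjusted p was above 0.05, as it was for all but 44.9% of genes. The same 7 genes did not overlap between the groups, against 14.2% of all genes that were lower without overlap. The filter looked at the WT mice alone, for the members and for all genes. *Ighg3*, at or under the floor in every *Tlr7* KO mouse, passed it only through its WT counts, so its call is no separate support. The median log2 fold change of the 8 was -2.74, and that of all genes was -0.04. Fewer cells of a type and less RNA per cell cannot be told apart in whole tissue.

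*Ighg2c*, the IgG2 subclass gene of strains that lack *Ighg2a*, had the largest difference. It stood at 50.3, 28.8 and 41.0 CPM in WT mice 1 to 3. In *Tlr7* KO mice 1 to 5 it had 2, 1, 1, 3 and 12 counts, or 0.0766, 0.0435, 0.0380, 0.124 and 0.634 CPM, so that 4 of the 5 mice were at or under the floor of 3 counts. The fitted log2 fold change was -7.91 ± 0.435 (SE, edgeR adjusted p = 3.4e-05). With all 5 *Tlr7* KO mice the fitted value was 241-fold lower than WT. Against the floor of the 4 mice without *Tlr7* KO mouse 5, the WT mean was at least 332-fold higher. That bound does not hold for mouse 5, which was left out because it lay above the floor. The WT and *Tlr7* KO values were separated by a wide gap even with the fifth mouse included.

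*Ighg2b*, its neighbour on the chromosome, was lower as well. It had 71.1, 47.3 and 99.8 CPM in the 3 WT mice and 1.84, 2.31, 1.94, 1.40 and 3.27 CPM in the 5 *Tlr7* KO mice. No *Tlr7* KO mouse approached the WT range, and the log2 fold change was -5.10 ± 0.282 (edgeR adjusted p = 3.4e-05).

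*Ighg1* behaved differently from its neighbours. Its levels were 15.6, 9.20 and 13.0 CPM in WT and 10.95, 12.52, 9.04, 4.16 and 3.22 CPM in *Tlr7* KO, and the ranges overlapped, with 3 *Tlr7* KO mice close to WT and 2 below. The log2 fold change was -0.66 ± 0.399 (edgeR adjusted p = 0.231), with a 95% interval from -1.55 to 0.239, which still includes a fall of more than 2-fold. *Ighg3*, the IgG gene nearest to *Ighm*, was rare in every mouse. It had 26, 8 and 26 counts in WT and 2, 3, 3, 0 and 1 in *Tlr7* KO, all at or under the floor, so that WT was at least 5.04-fold higher (edgeR adjusted p = 0.00581).

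IgM and IgA were both lower, by different amounts. *Ighm*, the first class that a B cell expresses, had 334.5, 219.9 and 300.2 CPM in WT and 51.1, 61.1, 24.1, 44.6 and 31 CPM in *Tlr7* KO, a log2 fold change of -2.75 ± 0.279 (edgeR adjusted p = 0.00064). *Igha* had 1276, 982.6 and 1163 CPM in WT and 735.8, 667.3, 608.2, 628.9 and 396.6 CPM in *Tlr7* KO. The fold change was -0.91 ± 0.186 on the log2 scale (edgeR adjusted p = 0.0069), the smallest among the 7 genes called, and again no *Tlr7* KO mouse reached the lowest WT mouse.

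The light chains followed the same direction. *Igkc*, shared by all classes, had 1315, 1111 and 1106 CPM in WT and 522.9, 482.5, 424.1, 433.3 and 306.3 CPM in *Tlr7* KO, with a log2 fold change of -1.44 ± 0.164 (edgeR adjusted p = 0.000871). *Iglc2* had 39.2, 25.4 and 42.8 CPM in WT and 6.24, 9.18, 3.65, 3.75 and 4.12 CPM in *Tlr7* KO, with a log2 fold change of -2.74 ± 0.299 (edgeR adjusted p = 0.000837). Neither gene overlapped between the groups.

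**Figure D3:**
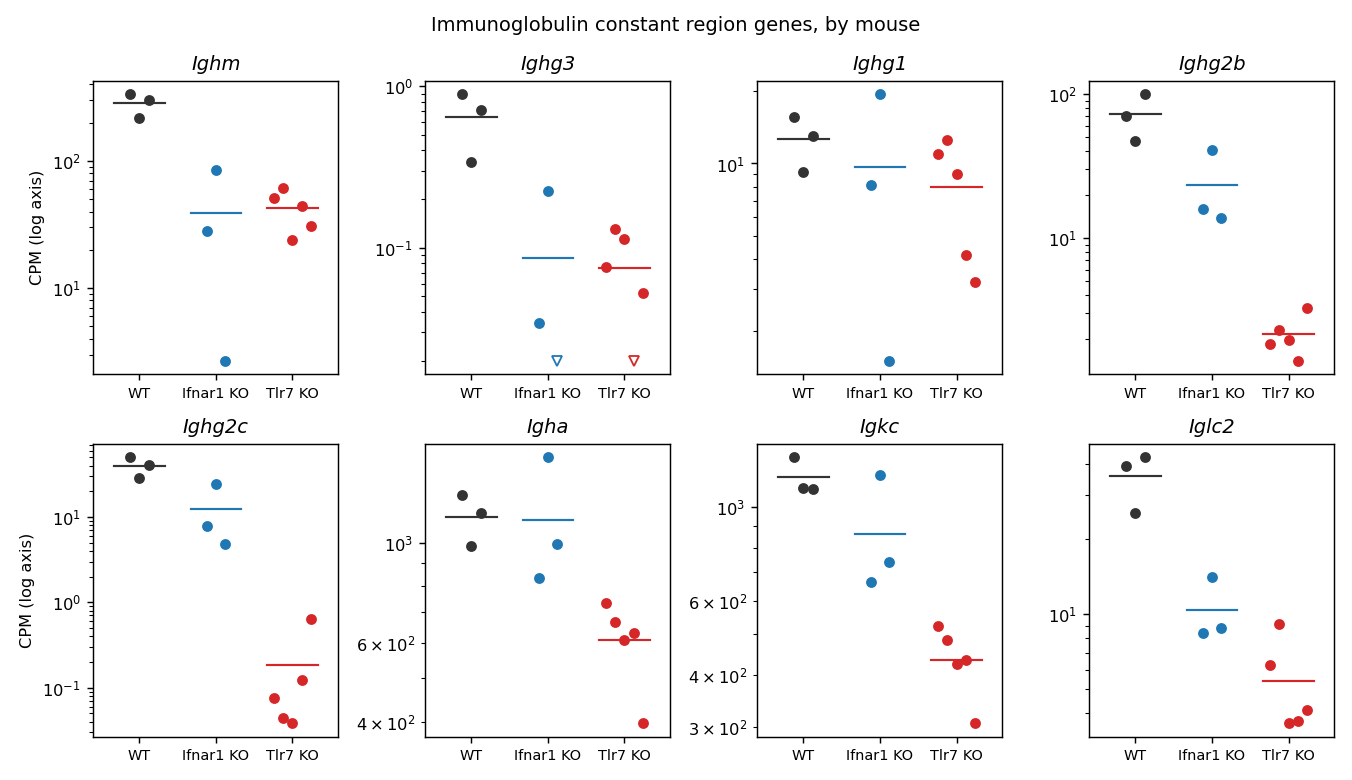
Level (CPM, log axis with its own range in each panel) of the 8 constant region genes in each of 11 mice, with the group mean as a line and an open triangle for a count of 0. *Ighg2c* was at most 0.634 CPM in *Tlr7* KO against at least 4.78 CPM in every other mouse, whereas *Ighg1* overlapped among all 3 groups.

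The comparison of WT with *Ifnar1* KO glands asked the same of type I interferon signalling. Here 2 of the 8 members, *Ighg2b* and *Iglc2*, were lower with an adjusted p under 0.05, where 12.4% of all 13937 genes were called lower, 6.76% higher and 19.2% either way, and 6 were not called. An unadjusted p under 0.05 was found for 5 of the 8 members and 37.6% of all genes. Of these 5, *Ighm*, *Ighg3* and *Ighg2c* were not called. *Ighm*, *Ighg3*, *Ighg2b*, *Ighg2c* and *Iglc2* did not overlap between the groups, where 21.1% of all genes were lower without overlap. The median log2 fold change of the 8 was -1.69, and that of all genes was -0.02.

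The spread among the 3 *Ifnar1* KO mice was wide, since mouse 2 was the highest of the group for all 8 members and mouse 3 was the lowest for 5 of them. *Ighm* had 28.0, 85.3 and 2.68 CPM in mice 1 to 3, all under the lowest WT mouse, and a log2 fold change of -2.92 ± 0.967 (edgeR adjusted p = 0.0713). *Ighg2c* had 7.93, 24.4 and 4.78 CPM, also under every WT mouse, and a log2 fold change of -1.72 ± 0.550 (edgeR adjusted p = 0.0648). *Ighg2b* had 16.0, 40.8 and 13.7 CPM and a log2 fold change of -1.66 ± 0.451 (edgeR adjusted p = 0.0427). These *Ifnar1* KO glands kept readily measured *Ighg2b* and *Ighg2c* RNA, with at least 114 counts of *Ighg2c* in each mouse.

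*Iglc2* had 8.44, 14.1 and 8.80 CPM in the *Ifnar1* KO mice and a log2 fold change of -1.80 ± 0.266 (edgeR adjusted p = 0.0207). *Ighg3* had 1, 6 and 0 counts, and its log2 fold change of -2.87 ± 0.888 did not pass the threshold (edgeR adjusted p = 0.0600). The other 3 genes overlapped with WT. *Igha* stood at 834.4, 1551 and 992.8 CPM with a log2 fold change of -0.04 ± 0.275 (edgeR adjusted p = 0.927, 95% interval -0.684 to 0.601). *Igkc* stood at 663.3, 1190 and 741.7 CPM with -0.47 ± 0.263 (edgeR adjusted p = 0.233), and *Ighg1* at 8.14, 19.4 and 1.51 CPM with -0.41 ± 0.695 (edgeR adjusted p = 0.698).

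The number of members called in this comparison moved with single mice, as did the number over all genes, which was 2677 with every mouse. Without *Ifnar1* KO mouse 2, which had the highest salivary gland marker sum of its group, 5 members were called, beside 1590 of all genes. *Ighm* was then at -4.24, *Ighg2b* at -2.31 and *Ighg2c* at -2.67 on the log2 scale (edgeR adjusted p = 0.0408, 0.0287 and 0.0287). *Ighg3* was also called there (edgeR adjusted p = 0.0368), but the 2 mice left had 1 and 0 counts, so that only a bound can be given, at least 5.67-fold lower than WT against the floor. Without WT mouse 2, 4 members were called, beside 4643 of all genes. Without WT mouse 1, WT mouse 3, *Ifnar1* KO mouse 1 or *Ifnar1* KO mouse 3, 0 members were called, beside 13, 104, 0 and 0 of all genes. In these fits *Ighg2b* had -1.685, -1.369, -1.415 and -1.397 on the log2 scale, and *Iglc2* had -1.742, -1.664, -1.645 and -1.709. When WT mouse 3 and *Ifnar1* KO mouse 2 were left out together, a choice made after their salivary gland markers had been seen, *Ighg2b*, *Ighg2c* and *Iglc2* were called. These were 3 members in all, beside 449 of all genes.

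The direct comparison of the knockouts tested where they differ. With *Ifnar1* KO as the reference, 3 of the 8 members passed an adjusted p of 0.05, all of them lower in *Tlr7* KO, where 0.868% of 13935 genes were called lower, 0.926% higher and 1.79% either way. An unadjusted p under 0.05 was found for 5 members and 16.3% of genes, and 4 did not overlap, where 5.24% were lower without overlap. With all mice, *Ighg2c* was lower in *Tlr7* KO by 6.21 ± 0.713 on the log2 scale (edgeR adjusted p = 0.00617). Against the floor of the 4 mice without *Tlr7* KO mouse 5 it was at least 103-fold lower. That bound does not hold for *Tlr7* KO mouse 5, which had 12 counts. Without *Ifnar1* KO mouse 2 as well, which had the highest *Ighg2c* level of its group, that bound was 52.6-fold, and without *Ifnar1* KO mouse 2 alone the log2 fold change was -5.23. For *Ighg2b* the log2 fold change was -3.47 ± 0.367 (edgeR adjusted p = 0.0036), and -2.80 without *Ifnar1* KO mouse 2. Every *Ifnar1* KO mouse had more than 4 times the *Ighg2b* level of the highest *Tlr7* KO mouse.

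*Igkc* was the third gene called, with a log2 fold change of -0.99 ± 0.206 (edgeR adjusted p = 0.0425). Its call was lost when any mouse other than *Ifnar1* KO mouse 2 was left out, with adjusted p between 0.0595 and 0.104. *Igha* did not overlap between the knockouts but was not called, at -0.89 ± 0.222 (edgeR adjusted p = 0.0816). *Ifnar1* KO mouse 2 had the highest level of both genes and the highest salivary gland marker sum of its group. Without it *Igha* had -0.58 and *Igkc* -0.69. *Ighm* had a log2 fold change of 0.13 ± 0.699 with a 95% interval from -1.42 to 1.69, and *Ighg1* one of -0.27 ± 0.627 with an interval from -1.67 to 1.12, so that differences of more than 2-fold either way remain possible. *Iglc2* was not called at -0.95 ± 0.303 (edgeR adjusted p = 0.157), and for *Ighg3*, with all *Tlr7* KO mice at or under the floor and at most 6 counts in *Ifnar1* KO, the fitted value is not read as a fold.

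**Figure D4:**
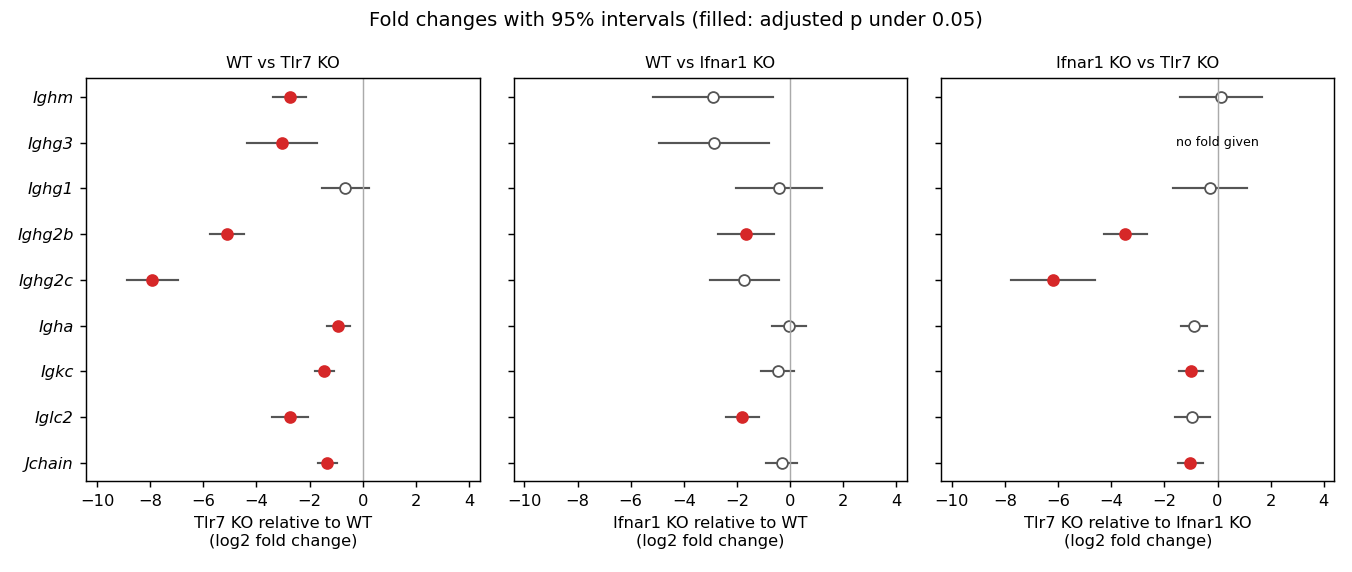
Log2 fold change with its 95% interval for the 8 members and *Jchain* in the 3 comparisons, with no point for *Ighg3* between the knockouts, filled where the adjusted p was under 0.05. *Ighg2c* and *Ighg2b* lie furthest below 0 in both comparisons of *Tlr7* KO, at -7.91 and -5.10 against WT and -6.21 and -3.47 against *Ifnar1* KO, and *Ighg1* spans 0 in each comparison.

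Ratios of counts within a mouse do not depend on how libraries are scaled, and they compare the classes directly. Each heavy chain gene was set against *Igha*, and 7 ratios were tested per comparison with a two-sided exact permutation test over mice, whose smallest p is 0.0179 for 3 against 5 mice. Between WT and *Tlr7* KO, 6 of the 7 ratios differed at this smallest p (adjusted p = 0.0208), without overlap between the groups. The ratio of *Ighg3* lost its call with 2 added to each count or with *Jchain* as the reference (exact permutation test, adjusted p = 0.0625 in both), which left 5. Without any 1 WT mouse, or without *Tlr7* KO mouse 3, 0 of the 7 passed. With 2 WT mice the smallest p is larger, and none could pass after adjustment while *Ighg1* overlapped, so that loss is set by the design. Without 1 WT mouse the log2 differences were -1.83 to -1.95 for *Ighm*, -3.88 to -4.30 for *Ighg2b* and -7.23 to -7.44 for *Ighg2c*. With all mice they were -1.88, -4.13 and -7.33. Per 1000 counts of *Igha*, *Ighm* had 262, 224 and 258 counts in WT and 69.5, 91.6, 39.5, 70.9 and 78.2 in *Tlr7* KO, which is a mean 3.67-fold lower ratio. *Ighg2b* had 55.7, 48.2 and 85.8 in WT and 2.50, 3.45, 3.19, 2.23 and 8.26 in *Tlr7* KO, 17.5-fold lower. *Ighg2c* had 39.4, 29.3 and 35.2 in WT and at most 1.60 in *Tlr7* KO.

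IgM and IgG2 RNA was thus lower in *Tlr7* KO relative to IgA RNA of the same gland as well as in scaled CPM. *Ighg1* was the exception: per 1000 counts of *Igha* it had 12.2, 9.36 and 11.2 counts in WT and 14.9, 18.8, 14.9, 6.61 and 8.12 in *Tlr7* KO, on both sides of the WT range (exact permutation test, p = 0.768). Set against *Ighg1*, *Ighg2c* counts were 3.22, 3.13 and 3.15 times those of *Ighg1* in the WT mice and 0.00873, 0.00520, 0.00629, 0.0345 and 0.203 times in the *Tlr7* KO mice. The WT mice lay close together in this ratio, although their *Ighg2c* levels differed, and in *Ifnar1* KO it was 0.975, 1.26 and 3.14, the last being within the WT range.

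In *Ifnar1* KO, 6 of the 7 ratios did not overlap with WT, all but that of *Ighg1*, but 3 against 3 mice cannot give a p below 0.1. Per 1000 counts of *Igha*, *Ighm* had 33.6, 55.0 and 2.70 counts in *Ifnar1* KO, *Ighg2b* had 19.2, 26.3 and 13.8, and *Ighg2c* had 9.51, 15.8 and 4.81. Between the knockouts, the *Ighg2b* and *Ighg2c* ratios did not overlap and had the smallest p, 0.0179, but an adjusted p of 0.0625 over the 7 ratios (exact permutation test), so that none passed the threshold. The *Ighm* ratio was 3.94-fold higher in *Tlr7* KO than in *Ifnar1* KO on average (exact permutation test, p = 0.0357, adjusted p = 0.0833), with overlap. On the log2 scale this difference was 1.98, and it was 0.65 without *Ifnar1* KO mouse 3 and 2.82 without *Ifnar1* KO mouse 2.

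The light chain ratios were also lower in the knockouts. For every 1000 counts of *Igha* there were 1030, 1130 and 951 counts of *Igkc* in WT, 711, 723, 697, 689 and 772 in *Tlr7* KO and 795, 767 and 747 in *Ifnar1* KO. *Iglc2* had 29.8, 22.9 and 38.7 counts per 1000 counts of *Igkc* in WT, 11.9, 19.0, 8.60, 8.65 and 13.5 in *Tlr7* KO, and 12.7, 11.8 and 11.9 in *Ifnar1* KO. Both knockouts lay below WT in both ratios. The call of *Iglc2* against *Igkc* between WT and *Tlr7* KO was lost when any mouse other than *Tlr7* KO mouse 2 was left out (exact permutation test, adjusted p = 0.0667). With a WT mouse left out no ratio could pass, so that part of the loss is set by the design. The log2 difference was -1.33 with all mice and -1.14 to -1.52 with each mouse left out. Between the knockouts the *Iglc2* ratio had a p of 0.982 (exact permutation test).

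**Figure D5:**
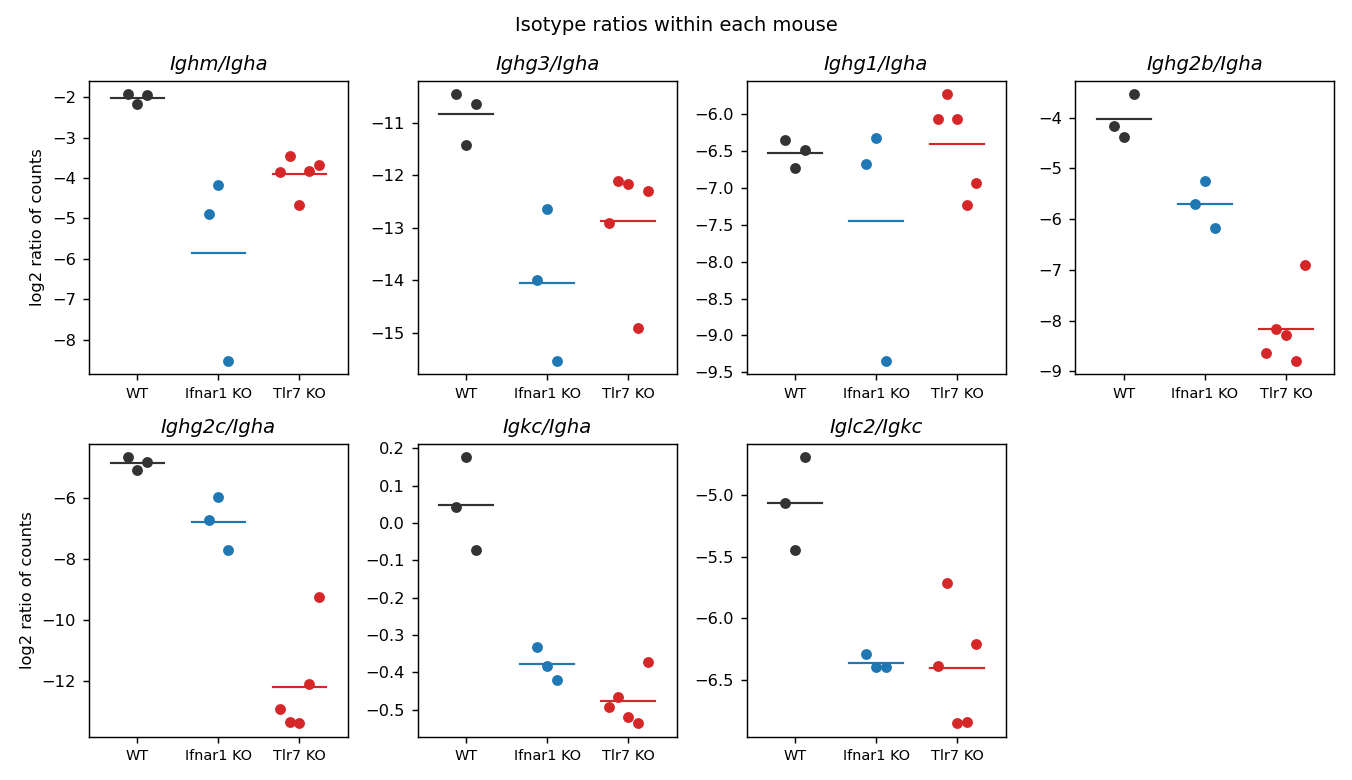
Log2 ratio of counts within each mouse for 5 heavy chain genes and *Igkc* against *Igha*, and for *Iglc2* against *Igkc*, with the group mean as a line. The WT mice lie above all *Tlr7* KO mice in 6 of the 7 panels, and *Ighg1* against *Igha* overlaps.

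In *Tlr7* KO the partners of polymeric IgA moved in opposite directions. *Jchain* had 320.2, 339.1 and 273.9 CPM in WT and 142.9, 145.5, 124.0, 117.6 and 89.2 CPM in *Tlr7* KO, without overlap, and a log2 fold change of -1.33 ± 0.155 (edgeR adjusted p = 0.000952). In *Ifnar1* KO it had 189.8, 352.3 and 215.1 CPM (log2 fold change -0.32 ± 0.251, edgeR adjusted p = 0.380). *Pigr*, made by the epithelium, rose in both knockouts, from 68.7 to 98.4 CPM in WT to 147.2 to 182.6 CPM in *Tlr7* KO (log2 fold change 0.99 ± 0.126, edgeR adjusted p = 0.00124) and 154.5 to 232.9 CPM in *Ifnar1* KO (1.17 ± 0.205, edgeR adjusted p = 0.0225). The call in *Ifnar1* KO was lost without WT mouse 1, WT mouse 3, *Ifnar1* KO mouse 1 or *Ifnar1* KO mouse 3 (edgeR adjusted p from 0.0675 to 0.0799), and without WT mouse 3 and *Ifnar1* KO mouse 2 together (log2 fold change 0.87, edgeR adjusted p = 0.0787). *Ifnar1* KO mice 2 and 1, both with salivary gland markers, had the highest *Pigr* levels of that group, 232.9 and 172.2 CPM, and the part of those markers was not tested. The sums of epithelial markers moved with it: the 7 lacrimal acinar markers summed to 49200 to 75600 CPM in the WT mice and at least 76300 CPM in every knockout mouse, and 3 duct markers to 198 to 219 CPM and 238 to 318 CPM. The sums rest on a few abundant genes and the markers did not move together: in *Tlr7* KO, *Mup4*, *Scgb2b24*, *Aqp5* and *Krt8* were called higher, *Slc12a2* and *Krt19* lower and the other 4 not, and in *Ifnar1* KO only *Slc12a2* and *Krt19* of the 10 were called, both lower. Their part in the difference of *Pigr* was not tested.

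Among all genes outside the immunoglobulin genes, *Jchain* was the one whose log2 CPM, centred on its mean, was nearest to that of *Igha* over the 11 mice, with a root mean square difference of 0.223, followed by *Mdm1* (0.268) and *Rasl12* (0.281). *Ighm* was nearest to *Slamf6* (0.466) and *H2-M2* (0.508). Relative to WT, *Slamf6*, a receptor of lymphocytes, had log2 fold changes of -2.69 (*Tlr7* KO) and -3.40 (*Ifnar1* KO), and *H2-M2* of -2.03 and -2.62. *Ighg2b* was nearest to *Asgr1* (0.947), *Gm21718* (1.17) and ENSMUSG00000087262 (1.17), and the same genes were nearest to *Ighg2c*, but at 2.01 or more. The SD of *Ighg2c* over the mice was 3.49 on the same log2 scale, so this likeness is loose.

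IgE, whose gene was not among those listed, was barely measured. *Ighe* had 9, 1 and 5 counts in WT, 8, 5 and 2 in *Ifnar1* KO and 0, 0, 1, 1 and 0 in *Tlr7* KO, and it did not pass the filter, so no test is given.

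Genes of B cells fell in both knockouts, and the constant region genes can be read beside them. Over all genes, 17.4% were called lower and 15.3% higher in *Tlr7* KO, and 12.4% and 6.76% in *Ifnar1* KO. Of 17 B cell genes tested, 17 were lower in *Tlr7* KO, with a median log2 fold change of -3.28, and 16 were lower in *Ifnar1* KO, with a median of -4.23. *Cxcr5*, a homing receptor for lymphoid follicles, had -3.64 and -4.52, *Bank1* had -3.42 and -4.30, and *Fcmr*, the IgM receptor, had -3.41 and -4.42. Without *Ifnar1* KO mouse 2 the fall in *Ifnar1* KO was larger, at -5.58 for *Cxcr5*, -5.21 for *Bank1* and -5.62 for *Fcmr*, and without *Tlr7* KO mouse 2 *Cxcr5* had -4.53 and *Bank1* -4.29 in *Tlr7* KO. The largest falls in *Ifnar1* KO were those of *Fcer2a*, the low-affinity IgE receptor, at -4.67, *Fcrla* at -4.61 and *Cxcr5*. Without *Ifnar1* KO mouse 2 *Fcer2a* had -5.56 and *Fcrla* -5.60. Between the knockouts edgeR called 0 of the 17, beside 1.79% of all genes, and 2 had an unadjusted p under 0.05 in edgeR, beside 16.3%. DESeq2 called 1, beside 577 of all genes. Without *Ifnar1* KO mouse 2 edgeR called 2, beside 877 of all genes. The B cell calls in *Ifnar1* KO rested on every mouse but 2: without WT mouse 1, *Ifnar1* KO mouse 1 or *Ifnar1* KO mouse 3 none was left, and without WT mouse 3 there was 1. Over all genes, 13, 0, 0 and 104 passed in these fits.

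The genes of plasma cells did not move as a group. Of 16 tested, 7 were lower and 5 higher in *Tlr7* KO, beside 17.4% and 15.3% of all genes (median log2 fold change -0.25), and 5 were lower and 3 higher in *Ifnar1* KO, beside 12.4% and 6.76% (median -0.12). Without WT mouse 1 or WT mouse 3, 7 of the 16 were called in *Tlr7* KO, while calls over all genes were 2735 and 2601 in place of 4566. In *Ifnar1* KO, without WT mouse 1, WT mouse 3, *Ifnar1* KO mouse 1 or *Ifnar1* KO mouse 3, 0 were called in this list and in both lists that follow. Without WT mouse 3 and *Ifnar1* KO mouse 2 together, 3 were called here, 1 in the class switching list and 3 in the transport list. Over all genes, 13, 104, 0 and 0 were called in the single-mouse fits and 449 without the pair, in place of 2677. *Tnfrsf13b*, a receptor for the survival factors BAFF and APRIL, had -2.13 and -2.41, *Pou2af1*, a coactivator of immunoglobulin transcription, had -1.90 and -1.999, and *Cd38* had -1.86 and -3.01, the latter -3.94 without *Ifnar1* KO mouse 2. *Slamf7* had -2.06 in *Ifnar1* KO, the 3rd largest fall of the list there. Between the knockouts, *Jchain* alone was called of the 16 (edgeR adjusted p = 0.0397), beside 1.79% of all genes. Without *Ifnar1* KO mouse 3 or any 1 *Tlr7* KO mouse it was not called (edgeR adjusted p from 0.06 to 0.0923), which left 0. The summed level of 8 plasma cell markers ranged in CPM from 733 to 905 (WT), from 712 to 882 (*Ifnar1* KO) and from 688 to 759 (*Tlr7* KO), but this list includes secretory genes such as *Xbp1* and *Derl3*, which acinar cells also use, and *Derl3* rose in *Tlr7* KO (0.83, edgeR adjusted p = 0.00204).

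Of 21 genes tested from a list of class switching and its signals, 12 were lower and 1 higher in *Tlr7* KO (all genes: 17.4% and 15.3%), and 9 were lower in *Ifnar1* KO (all genes: 12.4%). *Il21*, a cytokine of follicular helper T cells that drives switching, was at or under 3 counts in every knockout mouse, at least 7.89-fold lower in *Tlr7* KO and 8.93-fold lower in *Ifnar1* KO against that floor. WT mouse 1 had the highest level, and without it these bounds were 4.63-fold and 5.24-fold. Its receptor gene *Il21r* had log2 fold changes of -2.49 and -3.55, and *Cd40*, the receptor for T cell help on B cells, -1.69 and -2.91. Without *Ifnar1* KO mouse 2 they had -4.86 and -3.80 in *Ifnar1* KO. *Cd40lg*, the T cell ligand of CD40, fell in *Tlr7* KO (-2.85, edgeR adjusted p = 0.0160, and -3.49 without *Tlr7* KO mouse 2). In *Ifnar1* KO it had 0, 4 and 0 counts and -3.29, without overlap with WT but not called (edgeR adjusted p = 0.0704). The fitted value there was -2.67 without *Ifnar1* KO mouse 1 and -6.91 without mouse 2, where only counts of 0 were left. It was called without WT mouse 2 and with all 11 mice in a single fit (edgeR adjusted p = 0.0273 and 0.0265). Between the knockouts both edgeR and DESeq2 called 0 of the 21, where edgeR called 1.79% of all genes. An unadjusted p under 0.05 in edgeR was found for 4 of the 21 and 16.3% of all genes. Without *Ifnar1* KO mouse 2 edgeR called 1, beside 877 of all genes. Without WT mouse 1 or WT mouse 3, 7 of the 21 were called in *Tlr7* KO, while calls over all genes were 2735 and 2601 in place of 4566.

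Of 13 genes for immunoglobulin transport and receptors, 7 were lower and 2 higher in *Tlr7* KO (all genes: 17.4% and 15.3%), and 10 were lower and 2 higher in *Ifnar1* KO (all genes: 12.4% and 6.76%). The higher genes were *Pigr* and *Fcamr*, a receptor for IgA and IgM, at 1.15 in *Tlr7* KO and 1.12 in *Ifnar1* KO. *Fcmr* and *Fcer2a* (-3.18, and -4.01 without *Tlr7* KO mouse 2) led the falls in *Tlr7* KO, with *Fcrl5*, an IgG receptor of B cells, at -2.89. In *Ifnar1* KO, *Fcrl5* was at the floor and at least 9.78-fold lower. Between the knockouts *Fcer1g*, the signalling chain shared by activating Fc receptors, was higher in *Tlr7* KO by 1.29 (edgeR adjusted p = 0.0290), while *Jchain* was lower. The call of *Fcer1g* was lost with library size only (edgeR adjusted p = 0.0563), with all 11 mice in a single fit (0.12), with the second table (0.148) and without *Ifnar1* KO mouse 1 or 3 or *Tlr7* KO mouse 1, 3 or 5 (0.0594 to 0.115). Without WT mouse 1 the calls in *Tlr7* KO numbered 5, beside 2735 of all genes in place of 4566. Between the knockouts leaving out single mice gave from 0 to 5, beside 85 to 877 of all genes in place of 250.

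The B cell markers and *Ighg2c* did not separate the mice alike. The 6 B cell markers summed in CPM to 250, 71.3 and 215 (WT), to 8.95, 18.3 and 2.30 (*Ifnar1* KO) and to 18.1, 43.4, 5.24, 11.7 and 13.5 (*Tlr7* KO), so that the knockouts overlapped. *Ighg2c* did not overlap between the knockouts, whereas *Ighm* did. Within WT and within *Ifnar1* KO the mice had the same order in *Ighm* and in *Ighg2c* as in the B cell sums. Within *Tlr7* KO the order of *Ighm* differed from that of the B cell sums only between mice 4 and 5. The order of *Ighg2c*, which had at most 12 counts there, differed more. The 7 T cell markers summed in CPM to between 20.5 and 72.2 (WT), 1.30 and 12.3 (*Ifnar1* KO), and 4.67 and 24.8 (*Tlr7* KO), and their part in the immunoglobulin results was not tested.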

How the data were processed

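Whole lacrimal gland RNA of 11 male NOD mice was sequenced by the authors. The main table holds estimated counts that the authors made with salmon (0.9.1) and tximport within bcbio (1.0.8), deposited as whole numbers under a name that calls them normalized; library totals differed, so they were used as counts. A second deposited table of whole-number counts, from reads aligned to mm10 with HISAT2 (2.1.0, per the submitters' processing notes), served as an alternative, and its counting step is not given in the sources used here; 1 of its columns, of a mouse not among the samples, was not used. The estimated counts were rounded and tested with edgeR (4.0.16; glmQLFit and glmQLFTest, TMM, genes with at least 30 counts summed over WT, Benjamini-Hochberg over all genes tested, threshold 0.05) in R 4.3.3, with the SE taken as the log2 fold change divided by the square root of F and the 95% intervals from the test's t distribution. The filter looks at WT alone. Within-mouse ratios used counts plus 0.5 and an exact permutation test. The script was tested on simulated data. Sequences and lengths come from GENCODE M21 on GRCm38. The authors' own test was DESeq2.

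Members and gene lists were chosen with earlier results of these data known. Genes named are the members, *Ighe*, *Jchain*, *Pigr*, the targeted genes, the 3 called genes with the largest change of each list in each comparison and the 3 nearest genes of *Igha*, *Ighm*, *Ighg2b* and *Ighg2c*; *Derl3*, *Xbp1* and *Fcamr* were added after their values were seen, and some genes that the rule names are not reported here. Of 9 ratios planned, 7 could be formed. Alternatives were DESeq2 (1.42.0), RLE factors, library size only, filterByExpr, no filter, all 11 mice in a single fit, the second table, a replicate block, a threshold of 0.01, 2 added to counts, *Jchain* as reference, other lengths and each mouse left out; the secreted transcript length, other lengths for IgG subclasses and leaving out WT mouse 3 and *Ifnar1* KO mouse 2 together, were chosen after seeing the data. The bounds of *Ighg2c* leave out *Tlr7* KO mouse 5 because of its value. The floor of 3 counts covers counting error only. Each library is a separate mouse, and p-values measure the spread between mice.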

Additional observations from a re-analysis of the deposited data

Results flagged for a closer look

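The log2 ratio of *Ighg3* to *Igha* in *Tlr7* KO had 1 mouse far from the others. *Tlr7* KO mouse 4, with 0 counts of *Ighg3*, lay at -14.9, and the other 4 lay between -12.9 and -12.1, so that the gap to the nearest mouse was 0.71 of the range of the group, at Dixon's critical value of 0.71 for 5 samples. The ratio rests on 0 to 3 counts per mouse. Of 20 groups of 5 values examined in this way this was the only 1, and chance flags about 1 in 20 groups.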

How the results depend on the processing

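Between WT and *Tlr7* KO, 7 members were called with each mouse left out (7 to 7) and under the alternatives run, except filterByExpr, which removed *Ighg3* before the test and left 6, and the replicate number as a block, which left 2 (*Ighg2b* and *Ighg2c*). The sample labels number the mice but do not state a pairing. Same-numbered deviations correlated at -0.142, -0.4 and 0.0305 between WT and *Tlr7* KO. Between WT and *Ifnar1* KO they correlated at -0.158, -0.44 and -0.275. No WT mouse correlated best with its own number in either comparison. Between the knockouts the values were 0.0641, 0.34 and 0.26, and each *Ifnar1* KO mouse correlated best with its own number. Whether knockout mice of the same number share a batch was not tested. Over all genes the replicate block gave 17, 0 and 533 calls in place of 4566, 2677 and 250 (WT and *Tlr7* KO, WT and *Ifnar1* KO, and both knockouts), with 0 calls in each of the 4 gene lists against WT, and 6 B cell and 2 class switching genes called between the knockouts in place of 0. With each mouse left out, calls over all genes ran from 2601 to 6595, 0 to 4643 and 85 to 877. Between WT and *Ifnar1* KO, the 2 members called became 4 with DESeq2, 4 with library size only, 5 with all 11 mice in a single fit, 0 with the block, 0 at an adjusted p under 0.01, and 0 to 5 with each mouse left out. Between the knockouts the 3 became 5 with DESeq2, 2 with all 11 mice in a single fit (*Igkc* at an adjusted p of 0.0545 in edgeR), under the block (0.0512) or at an adjusted p under 0.01, and 2 to 3 with each mouse left out. The 6 ratios that differed between WT and *Tlr7* KO became 0 to 6 with each mouse left out: 0 without any 1 of the WT mice, where the lowest adjusted p was 0.0667 (exact permutation test), or without *Tlr7* KO mouse 3, and 5 without *Tlr7* KO mouse 1, 4 or 5. With 2 WT mice none could pass after adjustment, so that loss is set by the design and does not measure stability. The log2 ratio differences in those fits are given with the ratios above. Over all genes, calls at an adjusted p under 0.01 were 1970, 1 and 30, library size only gave 1340 for WT and *Ifnar1* KO, all mice together gave 5124 there and 93 between the knockouts, and DESeq2 gave 577 between the knockouts. Without TMM scaling, the median change over all genes (log2) shifted to -0.536, -0.312 and -0.19 and the share of calls that were lower from 53.2% to 97.2%, 64.8% to 96.2% and 48.4% to 69.4%; members below that median stayed 8, 8 and 7 of 8. Without division by length, *Igha* took 73.72% in WT and 92.02% in *Tlr7* KO, *Ighm* 18.26% and 6.411%, and IgG 8.027% in WT. With the secreted transcript, *Igha* took 77.49% and 93.57%, and *Ighm* 14.14% and 4.808%. Signs turned only for values that had not passed: with library size only, between the knockouts, *Ighm* -0.04873, *Ifnar1* -0.08943 and *Pou2af1* -0.1073, and under the block *Ighg3* (fitted near the floor and not read as a fold) 0.4521 and *Ighg1* 0.5604. With each mouse left out, WT and *Ifnar1* KO gave *Igha* -0.3315 to 0.1574 and *Ighg1* -1.4 to 0.08631, and the knockouts gave *Ighm* -0.4132 to 1.451, *Ighg3* -0.7027 to 1.773, *Ighg1* -0.7712 to 0.7179, *Pou2af1* -0.1173 to 0.4076, *Cxcr5* -0.01045 to 1.954, *Cd40lg* -0.2269 to 3.843 and *Iglc2* against *Igkc* -0.211 to 0.07422; *Ighg1* against *Igha* gave -0.05165 to 0.3234 between WT and *Tlr7* KO. Apart from settings stated here the cause of a change was not tested. Depth limits *Ighg3*, *Ighe* and, in *Tlr7* KO, *Ighg2c*, which lie near the floor of 3 counts.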
